A study of Rattus norvegicus with 3 samples.

Results

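Collagens and laminins are the main structural proteins of the extracellular matrix, and their transcripts were followed here across the cell classes of the rat embryonic cerebral cortex. The genes were chosen by symbol, as Col with a collagen chain number or Lam with a laminin chain letter and number. This gave 55 of the 29772 genes in the count tables, 44 collagens and 11 laminins. Papain-dissociated cortical cells of wildtype rat embryos were sequenced as single cells in droplets, from transcript 3′ ends, in 3 libraries that the submitters labelled E14, E16 and E18. The number of embryos behind a library is not described. The protocol text also describes cultured human cells, multiplexing and sorting, which do not match primary rat cells. With 1 library to a label, no comparison has a replicate check, and no p-value is given. All intervals, in parentheses, are 95% and cover counting error only.

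Collagen chains wind into triple helices that are modified and folded in the endoplasmic reticulum before secretion. Fibrillar collagens form the cable-like fibrils of connective tissue, fibril-associated collagens sit on their surface, and collagen IV forms the network of basement membranes. Laminins are trimers of an alpha, a beta and a gamma chain that assemble into the other network of the basement membrane. In the developing cortex the basement membrane under the meninges anchors the endfeet of radial glia, which are the stem cells there, and blood vessels carry a basement membrane of their own.

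The libraries stood apart in a way that goes against the order of their labels. Levels are given as CPM, the unique molecular identifiers (UMIs) of a gene scaled to 1000000 UMIs of the class in that library. In radial glia Hmga2, a chromatin protein of early neural progenitors, was at 11.3, 225 and 20.7 CPM in the libraries labelled E14, E16 and E18. Aldoc, which rises as glia mature, was at 713, 17.2 and 239 CPM, and Tnc, a matrix protein of radial glia and astrocytes, at 109.8, 0.173 and 6.92 CPM. The library labelled E16 was thus the lowest in Aldoc and Tnc and the highest in Hmga2, and the library labelled E14 was the reverse. For this reason no order in time is read from the labels. After filtering, 4286, 4977 and 5431 cells remained, with median depths of 11200, 12264 and 10477 UMIs. Cell barcodes shared between libraries numbered 17, 13 and 12 for E14 with E16, E14 with E18 and E16 with E18.

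Cells were clustered without the collagen and laminin genes and without the genes that fold, process or bind them, and clusters were named from other markers. Radial glia numbered 430, 3015 and 1923 cells in the libraries labelled E14, E16 and E18, and neurons 2864, 813 and 2230. Meningeal fibroblast-like cells, the collagen producers of the brain's covering, numbered 0, 93 and 20. Vascular-like cells numbered 14, 30 and 18 and joined an endothelial with a mural cluster. Choroid plexus-like cells, the epithelium that secretes cerebrospinal fluid, numbered 0, 154 and 55, and 83 and 38 labelled E16 and E18 when clustered at a finer Leiden resolution of 2. No marker of radial glia, excitatory neurons, meningeal, endothelial, mural or choroid plexus cells was at 0 in its own class, in any library that held the class. This is no separate check, since these markers named the clusters and 1 UMI is enough, as for Alx4 in meningeal cells labelled E18. Markers counted as raised were 9, 10 and 10 of 15 in the meningeal clusters and 9 of 11 in choroid plexus. With no meningeal or choroid plexus cells in the library labelled E14, those comparisons rest on the libraries labelled E16 and E18.

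Every one of the 55 genes had at least 1 UMI in a kept cell, but 12 stayed under 5 CPM in every class and library compared. Among the lowest totals over all kept cells were 3 UMIs for Col6a5, 6 for Col4a3, 8 for Col4a4 and 9 for Col28a1. The other 43 genes reached 5 CPM in at least 1 class, Col4a4 among them, at 5.17 CPM from 3 UMIs in vascular cells labelled E14. A small class can thus reach this level with few UMIs, and the share over all genes was not counted. The genes were then ranked over radial glia, neurons, meningeal, vascular and choroid plexus cells, without other classes such as intermediate progenitors and cortical hem. In the library labelled E16, 25 genes had their highest level in meningeal cells, 6 in choroid plexus, 5 in vascular cells and 2 in radial glia, while 17 had under 10 UMIs in their highest class. In the library labelled E18 the counts were 20 in meningeal cells, 8 in choroid plexus, 7 in vascular cells, 1 in radial glia and 1 in neurons, with 18 under 10 UMIs. In the library labelled E14, which lacked meningeal and choroid plexus cells, 18 genes were highest in vascular cells, 8 in radial glia and 2 in neurons. Of these 5 classes, most genes with enough UMIs were highest outside radial glia and neurons. The same ranking was not made for all genes, so these counts are a description and show no trait of the families. In the small classes 1 UMI is also worth more CPM than in radial glia. In cortical hem-like cells labelled E16, Col2a1 was at 128 CPM (110–149), a higher value than in each of the 5 classes of that library. Its interval overlapped that of meningeal cells, at 115 CPM (97.4–136).

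**Figure D1:**
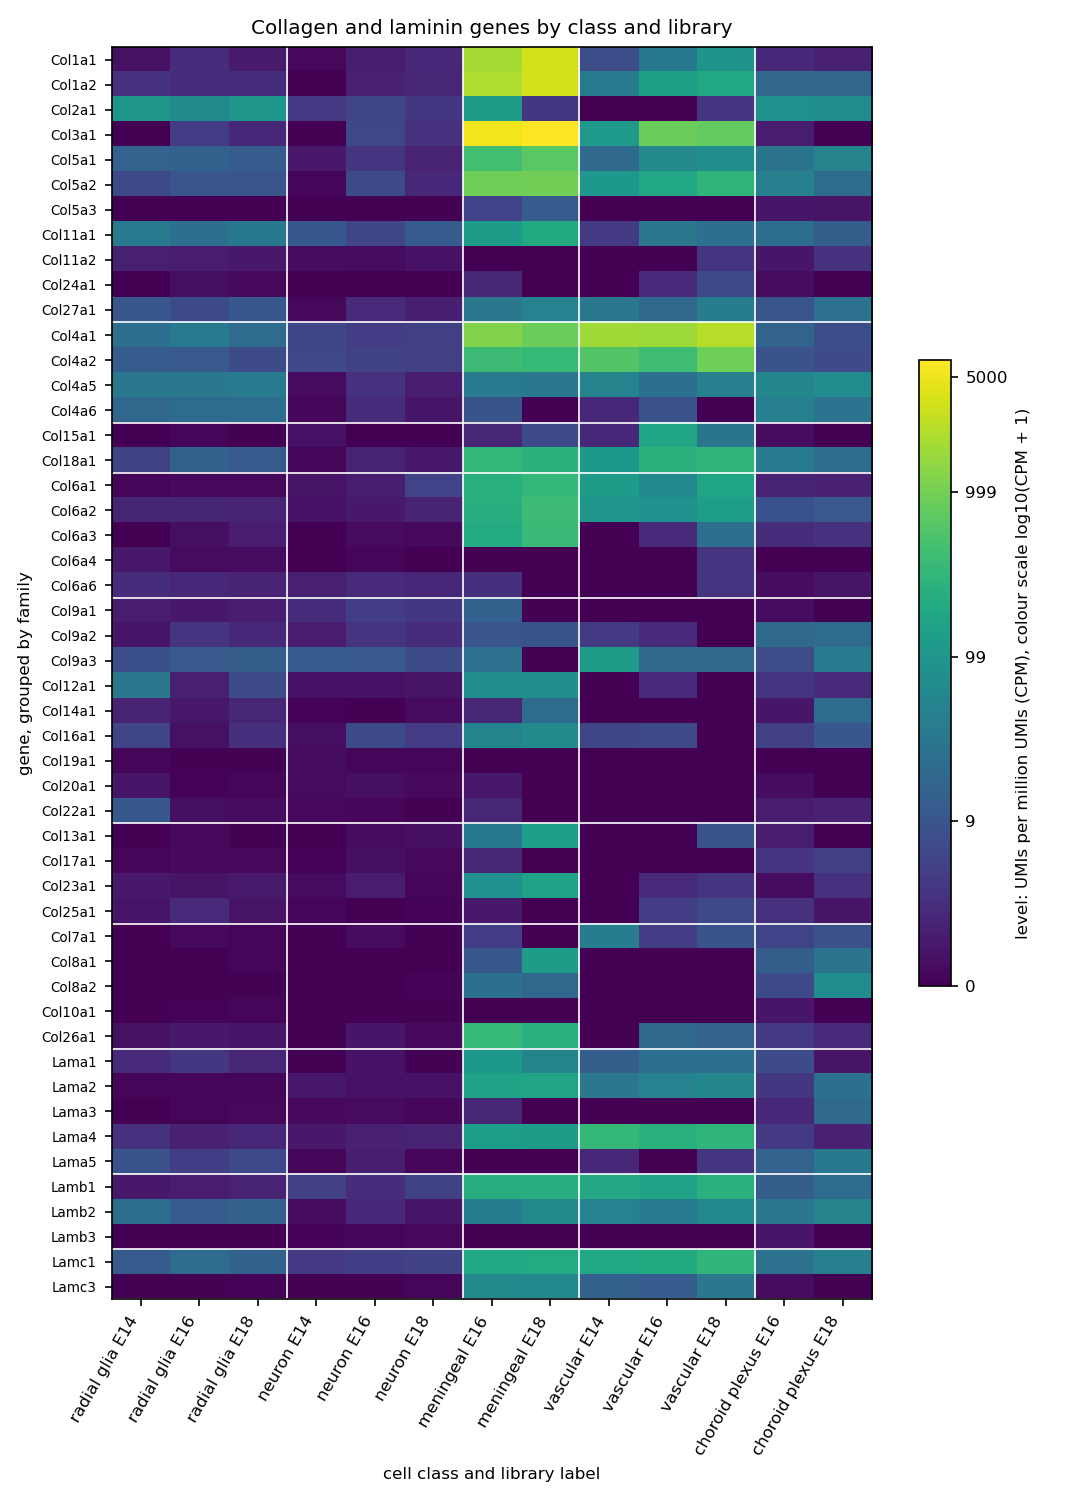
Level of each of the 50 genes with at least 10 UMIs over all kept cells (vertical axis, grouped by family) in each cell class and library label (horizontal axis), as CPM on a log colour scale. Meningeal columns are brightest for Col3a1 (5252 and 6314 CPM), vascular columns for Col4a1, and Col2a1 is higher in radial glia than in vascular cells.

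In collagen IV, pairs of chains are made from genes that lie head to head. Col4a1 and Col4a2 encode the chains of the trimer found in nearly all basement membranes. In the RefSeq promoter table of the rat assembly GRCr8 their start sites lie 77 bases apart on opposite strands, Col4a1 on the plus strand, so a single stretch lies upstream of both. It is shown because the UMI counts of both genes are set side by side below. The stretch runs 5′ to 3′ on the plus strand at chr16:84885521-84885596, and the capitals mark the only GC box in it.
Col4a1 and Col4a2, between the start sites: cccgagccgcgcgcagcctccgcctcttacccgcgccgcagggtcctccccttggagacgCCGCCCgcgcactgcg
Searched on both strands were the GC box GGGCGG, the CCAAT box CCAAT and the TATA box TATAAA. Of these, the GC box was found in this window, as CCGCCC at bases 61 to 66. Of 33469 upstream windows of the same 76 bases in the table, 18.1% held a GC box, 13.0% a CCAAT box and 4.61% a TATA box. The table held 44 of the 55 genes. Col4a3 and Col4a4 start 413 bases apart on chromosome 9, and Col4a5 and Col4a6 start 1415 bases apart on chromosome X, both pairs also on opposite strands. The UMI counts were made on another assembly, mRatBN7.2.

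Radial glia held a modest set of matrix transcripts, led by a cartilage-type fibrillar pair and the collagen IV genes. The 44 collagens summed to 325, 264 and 300.2 CPM in the libraries labelled E14, E16 and E18, and the 11 laminins to 46.8, 41.5 and 38.6 CPM. The collagen sum labelled E16 was 0.811 (0.773–0.8504) times that labelled E14, and the sum labelled E18 was 0.923 (0.878–0.969) times it. For the laminin sum the same ratios were 0.887 (0.783–1.01) and 0.824 (0.723–0.942). The interval of the first laminin ratio includes 1. The log2 ratio of the collagen sum was -0.30 for E16 and -0.12 for E18, both to E14. It moved to -0.14 and -0.0089 with doublets kept and to -0.15 and -0.0095 with size factors, so the small difference of E18 was not found under these settings.

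Col2a1, the chain of the main cartilage fibril, was the most abundant of the 55 in radial glia. It had 636, 3013 and 2662 UMIs in label order, or 103 (95.1–111), 65.3 (63.03–67.7) and 100.1 (96.3–104) CPM. The library labelled E16 was the low one, and the intervals of the others overlapped. Its ratio to the library labelled E14 was 0.635 (0.582–0.692), and the ratio of E18 to E16 was 1.53 (1.45–1.61). With every cell thinned to 2000 UMIs, 16.7%, 10.7% and 16.6% of radial glia held a Col2a1 UMI, against 0.491%, 0.743% and 0.542% of neurons. The thinning left out 5, 21 and 16 shallower radial glia. Without thinning 58.4%, 49.5% and 62.9% of radial glia and 3.88%, 3.94% and 2.78% of neurons held one, at median depths of 12764, 13511 and 12377 UMIs in radial glia and 12370, 8463 and 9026 UMIs in neurons. Of 124 erythroid cells labelled E16, which should lack the gene, 0 held a Col2a1 UMI after thinning, which allows a share of up to 2.93%. That limit lies above the neuron shares and sets no background for them. Without thinning 2 of the 124 held one, 1.61%, at a median depth of 32391 UMIs. Radial glia held 65.1%, 69.4% and 77.7% of all Col2a1 UMIs of their library. They also held 6176275 of 62740631, 46111588 of 80974234 and 26604041 of 73727823 UMIs of all genes. The share thus depends on the size of the class and is not a measure of level.

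Col11a1, whose chain joins Col2a1 in heterotypic fibrils, stood in the same order of libraries. It was at 34.0 (29.6–38.9), 23.7 (22.4–25.2) and 33.8 (31.7–36.1) CPM. The remaining fibrillar genes were lower. Col5a1, a fibril-initiating chain, was at 14.6, 13.97 and 11.9 CPM with overlapping intervals, Col27a1 at 9.71, 6.22 and 9.62 CPM and Col5a2 at 5.99, 9.13 and 9.21 CPM. Col3a1, a chain of soft tissue fibrils, had 0 UMIs labelled E14, which allows up to 0.486 CPM at a floor of 3 counts, and 3.64 and 1.62 CPM labelled E16 and E18.

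In collagen IV, radial glia carried both the ubiquitous pair and the pair Col4a5 and Col4a6, which builds a separate network in a subset of basement membranes. Col4a1 was at 23.8 (20.1–27.97), 34.3 (32.7–36.1) and 20.4 (18.7–22.2) CPM, highest in the library labelled E16, with the others overlapping. Col4a2 was at 11.98, 10.6 and 6.503 CPM, so the library labelled E18 was the low one. Col4a5 was at 31.7 (27.4–36.5), 31.1 (29.6–32.8) and 37.6 (35.3–39.99) CPM, and only the intervals of E16 and E18 were apart. Col4a6 was at 17.3, 21.01 and 21.7 CPM with all intervals overlapping. Col4a3, a chain of the kidney's filtering membrane, had 0, 0 and 0 UMIs in radial glia and its partner Col4a4 had 0, 0 and 1.

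Among fibril-associated collagens, 3 genes set the radial glia of the library labelled E14 apart. Col12a1 had 192, 56 and 169 UMIs, or 31.1 (26.8–35.8), 1.21 (0.917–1.58) and 6.35 (5.43–7.39) CPM. Col22a1, known from tissue junctions such as that of muscle and tendon, had 62, 17 and 9 UMIs, or 10.04, 0.369 and 0.338 CPM. Col16a1 had 32, 22 and 60 UMIs, or 5.18, 0.477 and 2.26 CPM. For Col12a1 and Col16a1 the 3 intervals did not overlap, and for Col22a1 the library labelled E14 stood alone. Relative to the library labelled E14, the Col12a1 ratio was 0.0391 (0.0285–0.0529) for E16 and 0.204 (0.165–0.253) for E18. At 2000 UMIs per cell, 4.47%, 0.234% and 0.944% of radial glia held a Col12a1 UMI, against 0.175%, 0.124% and 0.0903% of neurons. Without thinning the radial glial shares were 28.8%, 1.66% and 7.07%. The library labelled E14 also had the most barcodes over 10% mitochondrial UMIs, 25.9% against 12.6% and 12.1%. Over 5% were 90.1%, 33.2% and 55.04%, and a stricter filter at that level, with at least 2000 genes, left 322 cells labelled E14. Under that filter the log2 ratio of Col12a1 to E14 was -5.02 for E16 and -2.26 for E18, against -4.68 and -2.29.

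Radial glia labelled E14 and E18 lay mostly in the same 3 clusters, with 245, 100 and 78 cells labelled E14, while those labelled E16 lay mostly in 3 others, with 1217, 1139 and 613 cells. In every radial glia comparison with the library labelled E16, partner genes included, cell kind and library therefore cannot be told apart. In the first 3 clusters Col12a1 was at 32.8, 28.6 and 30.7 CPM labelled E14 and 6.16, 7.61 and 4.99 CPM labelled E18. In the other clusters it was at 1.02, 2.06 and 0.385 CPM labelled E16. The high level of Col12a1 was thus present in each main radial glia cluster of the library labelled E14. Tnc and Aldoc, given above, stood in the same order of libraries as Col12a1 and Col16a1, and their part was not tested. Col22a1 shared with them only the high level labelled E14. Col9a3, a cartilage fibril-associated chain, went the other way, at 7.61 (5.59–10.1), 10.6 (9.73–11.6) and 12.4 (11.1–13.8) CPM.

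Col18a1, the basement membrane collagen whose cleaved end is endostatin, was low in the library labelled E14. Its levels were 4.695 (3.14–6.74), 13.7 (12.6–14.8) and 11.1 (9.82–12.4) CPM. This put E16 at 2.91 (2.01–4.38) and E18 at 2.35 (1.605–3.58) times the level labelled E14.

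The laminin chains of radial glia were mostly Lamc1 and Lamb2, with little Lamb1. Lamc1, the gamma chain of most laminins, was at 10.8 (8.41–13.8), 20.1 (18.9–21.5) and 13.9 (12.5–15.4) CPM, highest labelled E16. Lamb2, a beta chain known from retina, kidney and the neuromuscular synapse, had 138, 541 and 363 UMIs, or 22.3 (18.8–26.4), 11.7 (10.8–12.8) and 13.6 (12.3–15.1) CPM, highest labelled E14. Lamc1 and Lamb2 therefore differed in opposite directions between the libraries labelled E16 and E14, by ratios of 1.86 (1.45–2.42) and 0.525 (0.435–0.638). These radial glia lay mostly in different clusters, so cell kind and library cannot be told apart. Lamb1 had 5, 48 and 38 UMIs, or 0.8095, 1.04 and 1.43 CPM. Of the alpha chains, Lama5, known from epithelia and vessels, was at 8.26, 4.08 and 5.86 CPM and Lama1, an early embryonic chain, at 1.94, 2.99 and 1.54 CPM.

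**Figure D2:**
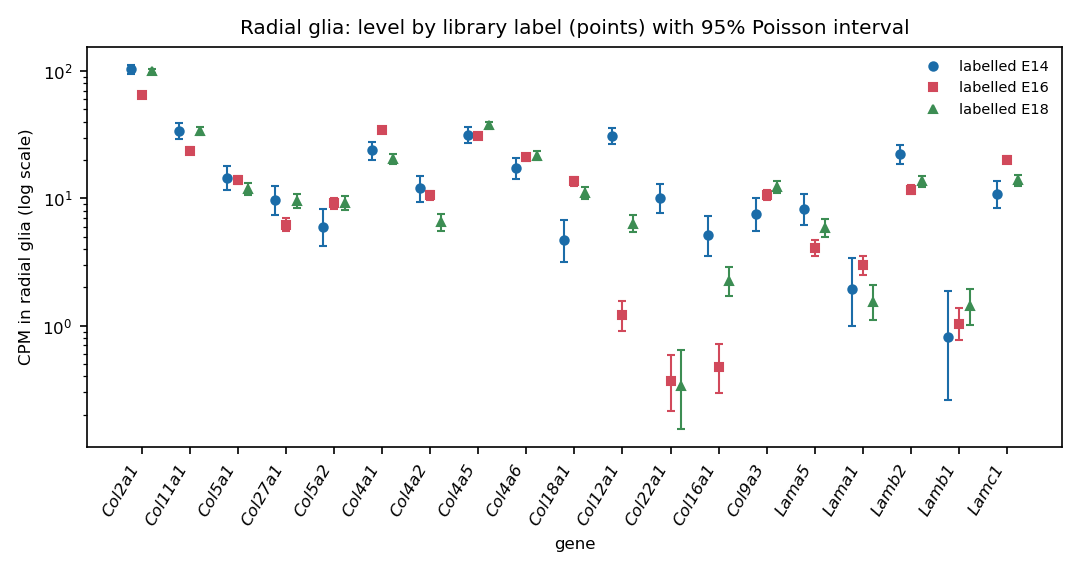
Levels of the leading genes in radial glia, in CPM on a log axis, with 1 point per library label and bars for the 95% Poisson interval. Col12a1, Col22a1 and Col16a1 lie far higher in the library labelled E14 than in that labelled E16, and Col18a1 lies lower.

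Counted over the table, few of the genes passed 2-fold between radial glia of different libraries. A gene was counted where it averaged at least 5 CPM over both sides, with 1 CPM added to each level before the ratio. Between the libraries labelled E16 and E14, 16 of the 55 were high enough. Col18a1 alone was at least 2-fold higher labelled E16, where 2.45% of all 9896 genes were, and Col12a1 and Col22a1 were at least 2-fold lower, where 7.26% were. Col12a1 and Col22a1 were so low labelled E16 that they passed the minimum only through the level labelled E14. The minimum thus fixed both lower calls, and the count is a description. The median log2 ratio was -0.11 for the 16 genes and -0.11 for all genes. Between E18 and E14, again Col18a1 was higher (background 1%) and Col12a1 and Col22a1 were lower (background 3.22%) among 16 genes, with a median log2 ratio of -0.03 against -0.06 for all genes. Here the minimum fixed the call of Col22a1 but not that of Col12a1. At a minimum of 20 CPM, which fewer genes reach, 0 genes passed in either comparison, and with no minimum 7 and 4 did. Between E18 and E16, which leaves out the library labelled E14, 0 of 13 genes passed in either direction (background 2.09% higher and 0.692% lower), and the medians were 0.05 and 0.07. Size factors in place of UMI totals shifted the log2 ratios of all genes by 0.15, 0.11 and -0.04 in these comparisons.

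Genes that fold, process or bind these proteins were described from lists chosen for their function. Of the 18 folding and modification genes, 13 were tested between the libraries labelled E16 and E14, 0 were higher and 1, Fkbp10, was lower. Over all genes 2.45% were higher and 7.26% lower in that comparison. The most abundant were Ppib at 491, 386 and 378 CPM, P4hb at 138, 119 and 129 CPM and Serpinh1 at 102, 104 and 111 CPM, which encode a prolyl isomerase, a prolyl hydroxylase subunit and the main collagen chaperone. In cross-linking and processing, 1 of 4 tested genes was lower labelled E16, and it was Sparc, a collagen-binding glycoprotein, at 207, 44.5 and 50.97 CPM. Of the other basement membrane components, 1 of 5 was lower, Nid1, whose product links laminin to collagen IV, at 15.5, 1.76 and 3.87 CPM. Nid1 passed the minimum level only through the library labelled E14, so the minimum fixed its call.

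Of the receptors, 9 were tested between the libraries labelled E16 and E14, 1 was higher and 4 were lower, against 2.45% and 7.26% of all genes. The higher one was Itga6, a laminin-binding integrin chain, at 4.37, 19.1 and 10.8 CPM. Among the lower ones, Adgrg1, a receptor for collagen III on neural progenitors, was at 162, 58.01 and 115 CPM, and Itgb1, the shared integrin beta chain, at 144, 66.04 and 85.7 CPM. The collagen-binding receptor kinases were lower too, Ddr1 at 67.03, 32.7 and 43.9 CPM and Ddr2 at 23.8, 0.607 and 2.18 CPM. For Ddr2 the minimum level fixed the call, as for Nid1. Of 7 proteases and inhibitors tested, Timp1 and Timp3, inhibitors of matrix metalloproteases, were lower, at 57.6, 19.1 and 24.3 CPM and 32.4, 5.44 and 12.5 CPM. Between E18 and E14, 1 of 5 processing genes and 1 of 10 receptors were higher, and 1, 2, 2 and 2 genes were lower among 5 processing genes, 6 basement membrane components, 10 receptors and 7 proteases and inhibitors, where 1% of all genes were higher and 3.22% lower. Fkbp10, Nid1, Itga6, Ddr1, Ddr2, Timp1 and Timp3 were picked for mention after their values were seen.

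Neurons held far less of both families than radial glia. Their collagens summed to 46.8, 75.7 and 62.4 CPM and their laminins to 10.1, 11.9 and 12.2 CPM. Relative to radial glia of the same library, the collagen sums were 0.144 (0.135–0.153), 0.287 (0.263–0.313) and 0.208 (0.196–0.2201) times as high. At 4-fold, 0 of 12, 0 of 12 and 0 of 13 genes were higher in neurons (background 6.28%, 6.26% and 6.53%), and 7, 8 and 8 were lower (background 9.53%, 6% and 7.84%). Of these lower genes 6, 1 and 6 were at or under 1.4 CPM in neurons, where the minimum level alone fixes a 4-fold call, so the count is a description. The lower genes numbered 1, 1 and 1 at a minimum of 20 CPM, and 3 and 3 labelled E16 and E18 with 5 CPM added, so the count rests on the setting. At the main setting Col2a1, Col4a5, Col4a6, Lamb2 and Col5a1 were lower in all 3 libraries. Col2a1, for example, was at 3.34, 5.33 and 3.03 CPM in neurons. Between libraries, 3, 3 and 2 genes were high enough in neurons to compare. The class differed in kind, with 737 of 813 cells labelled E16 in clusters named from Cajal-Retzius markers and 2 in excitatory clusters, against 2791 of 2864 and 2084 of 2230 in excitatory clusters labelled E14 and E18. The excitatory cells of these libraries also lay in different clusters, in 3 with 1165, 818 and 722 cells labelled E14 and 5, 8 and 3 labelled E18, and in 3 with 1, 3 and 6 labelled E14 and 917, 662 and 476 labelled E18. In each comparison between libraries, cell kind and library therefore cannot be told apart. None passed 2-fold for E16 over E14 (background 7.49% higher and 6.01% lower) or for E18 over E14 (background 3.02% and 2.19%), and for E18 over E16 Col11a1 was higher (background 2.99%) and 0 were lower (background 3.7%).

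With 1 CPM added, Col9a3, Col11a1 and Col4a2 stayed within 4-fold of radial glia in all 3 libraries. In neurons Col9a3 was at 11.7 (10.6–12.8), 10.5 (8.31–13.2) and 6.55 (5.53–7.698) CPM, lowest labelled E18, where radial glia were highest. Col11a1, 0.294, 0.224 and 0.348 times its radial glial level, was at 10.01, 5.33 and 11.8 CPM in neurons. Col4a2 was at 5.69, 4.37 and 4.32 CPM and Col4a1 at 5.23, 3.83 and 4.23 CPM. The neuron to radial glia ratio was 0.2199, 0.111 and 0.208 for Col4a1 and 0.475, 0.414 and 0.665 for Col4a2, and Col4a1 was among the genes past 4-fold labelled E16 and E18. Col4a1 and Col4a2 had nearly equal UMI counts in neurons, with Col4a1 making up 47.9% (42.9–52.9), 46.7% (33.7–60.004) and 49.5% (42.2–56.8) of their sum. In radial glia this share was 66.5% (59.9–72.7), 76.5% (74.6–78.3) and 75.8% (72.5–78.9), in vascular cells 75.3%, 80.7% and 73.02%, and in meningeal cells labelled E16 and E18 74.8% and 71.1%. In choroid plexus cells labelled E16 and E18 it was 64.2% (51.5–75.5) and 52.2% (30.6–73.2), intervals that overlap those of neurons. The intervals of neurons and radial glia did not overlap in any library. The share compares UMI counts of different 3′ ends within a class and is not a ratio of proteins.

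The beta and gamma laminin chains showed a split of the same kind. Lamb1 made up 55.8% (49.8–61.6), 33.3% (20.001–48.95) and 48.5% (41.4–55.6) of the Lamb1 and Lamc1 UMIs in neurons. In radial glia it made up 6.94% (2.29–15.5), 4.91% (3.64–6.46) and 9.31% (6.68–12.6). Lamb1 itself was at 4.31, 2.05 and 4.37 CPM in neurons against 0.8095, 1.04 and 1.43 CPM in radial glia, levels under the minimum for the 4-fold count. Lamb2 was at 0.298, 1.78 and 0.668 CPM in neurons, against the 11.7 CPM or more of radial glia.

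The neuron class was not uniform in these genes. A cluster of 213 cells named from markers of Cajal-Retzius cells, the early marginal zone neurons that secrete reelin, had Col16a1 at 21.5 and 35.8 CPM in the libraries labelled E16 and E18, from 25 and 31 UMIs. Col5a2 was at 22.4 and 23.1 CPM in it. The largest neuron cluster labelled E16, which carried both excitatory and Cajal-Retzius markers, had Col16a1 at 3.5998 CPM and Col5a2 at 2.6999 CPM. In the 3 largest excitatory clusters labelled E18, Col16a1 was at 0.5601, 8.34 and 0.157 CPM and Col5a2 at 0.336, 1.48 and 0.629 CPM. In the same clusters Col6a1, a chain of the beaded microfibrils of collagen VI, was at 2.35, 0.371 and 12.9 CPM, the last from 82 UMIs. These clusters were picked for mention after their values were seen.

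Intermediate progenitors, the dividing daughters of radial glia that make neurons, lay between both classes in their collagens, which summed to 105, 100.6 and 107 CPM, while their laminins summed to 9.01, 14.1 and 12.1 CPM. Col16a1 was at 12.7 (10.5–15.3), 5.09 (3.295–7.52) and 14.2 (12.2–16.5) CPM there, above both radial glia and the whole neuron class in the libraries labelled E14 and E18. Col12a1 had 72, 0 and 14 UMIs, or 8.11, 0 and 1.13 CPM, so it was highest labelled E14 as in radial glia. The class lay in different clusters by library: 522 of its 958 cells labelled E14 were in 1 cluster with 0 cells labelled E16, where 251 and 158 of 420 cells were in 2 others, so cell kind and library cannot be told apart. For E16 over E14, 2 of 7 genes were at least 2-fold higher (Col4a1 and Col18a1, background 6.27%) and 3 were lower (Col11a1, Col16a1 and Col9a3, background 11.4%). For E18 over E14 none passed (background 2.49% higher and 4.24% lower), and for E18 over E16 Col16a1 was higher (background 2.88%) and 0 were lower (background 1.41%).

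Meningeal fibroblast-like cells had the highest collagen sums of the 5 classes. Their collagens summed to 14466 and 18694 CPM in the libraries labelled E16 and E18, which is 54.8 (53.6–56.1) and 62.3 (60.2–64.4) times radial glia. Laminins summed to 907 and 909 CPM, against 738 and 1053 CPM in vascular cells of the same libraries. Of 33 and 34 genes tested, 27 and 29 were at least 4-fold higher than in radial glia, where 8.38% and 11% of all genes were. None was 4-fold lower labelled E16 (background 4.2%), and Col2a1, Col4a6 and Col9a3 were labelled E18 (background 5.78%). For 2 of these 3 lower genes, at or under 1.4 CPM in meningeal cells, the minimum level fixed the call. Genes at or under 1.4 CPM in radial glia could pass the minimum of 5 CPM over both sides only where they were at least 4-fold higher in meningeal cells. These numbered 14 and 12, and their calls were fixed by the minimum. Of the other 19 and 22 genes, 13 and 17 were higher.

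Fibrillar chains made up most of this. Col3a1 was at 5252 (5126–5379.6) and 6314 (6049–6587) CPM. Col1a2 was at 2226 and 3502 CPM and Col1a1 at 1952 and 3479 CPM, the chains of type I collagen, the main fibril of connective tissue. Col5a2 was at 908 and 944 CPM and Col5a1 at 442 and 682 CPM. The type I chains were thus higher labelled E18 than labelled E16, while Col5a2 had overlapping intervals (856–962 and 844–1053). Of the 6 collagen VI genes 3 were high, with Col6a1 at 259 and 336 CPM, Col6a2 at 253 and 401 CPM and Col6a3 at 216 and 381 CPM. Col6a4 and Col6a5 had 0 UMIs in both libraries and Col6a6 had 3 and 0.

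The basement membrane genes of meningeal cells were led by Col4a1 at 1210.4 and 870.4 CPM, with Col4a2 at 407 and 354 CPM and Col18a1 at 327 and 274 CPM. Lamb1 was at 228 and 248 CPM, Lamc1 at 188 and 207 CPM, Lama2, the muscle and nerve alpha chain, at 156 and 162 CPM, and Lama4 at 129 and 121 CPM. Lama1 was at 104 and 50.2 CPM. The intervals of Lama1 (87.3–124 and 29.2–80.3) did not overlap, while those of Lamb1, Lamc1, Lama2 and Lama4 did.

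Some meningeal levels differed between the libraries by more than counting error. Col2a1 had 146 UMIs labelled E16, 115 (97.4–136) CPM, in 51 of 93 cells, and 1 UMI in 20 cells labelled E18. Col9a1 and Col9a3 had 17 and 32 UMIs labelled E16 and 0 labelled E18. Col8a1, a network-forming collagen, went the other way, at 10.3 (5.47–17.6) and 127 (91.8–171) CPM, as did Col13a1, a transmembrane collagen, at 33.2 and 129.8 CPM. These genes were picked for mention after their values were seen. The clusters that make up the class held 50, 27 and 16 cells labelled E16 and 3, 13 and 4 labelled E18, so a difference between cell kinds and one between libraries cannot be told apart.

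Some of the partner genes were also higher in meningeal cells. There 9 of 16 tested folding genes were at least 4-fold above radial glia in each library, as were 4 of 8 and 6 of 9 processing genes and 7 of 8 basement membrane components in each, where 8.38% and 11% of all genes were. Serpinh1 was at 1057 and 1219 CPM, Sparc at 1142 and 2596 CPM, and Fbln1, an elastic fibre and basement membrane glycoprotein, at 1146 and 1039 CPM. Receptors were mixed, with 4 higher and 4 lower of 11 labelled E16 and 3 higher and 4 lower of 11 labelled E18, where 4.2% and 5.78% of all genes were lower. Adgrg1, Ddr1 and Lair1, an inhibitory collagen receptor of immune cells, were lower in both libraries, Itga6 labelled E16 and Itgb8 labelled E18. For Lair1 labelled E18 this rested on 1 UMI, with a ratio of 0.187 (0.00473–1.05), an interval that includes 1. Adgrg1 had 2 UMIs in each library in the cells that had the most Col3a1. The partner genes passed the same minimum level, so their counts too are a description.

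Type I and III collagen UMIs were also found at low levels outside meningeal cells. Of the UMIs of Col1a1, Col1a2 and Col3a1, Col3a1 took 55.7% (54.8–56.6) in meningeal cells labelled E16 and 47.5% (46.03–48.96) labelled E18. In radial glia it took 47.2% (41.9–52.5) of 356 and 34.7% (26.4–43.7) of 124 UMIs, and in neurons 71.2% (57.9–82.2) of 59 and 43.5% (34.9–52.4) of 131. The 3 genes summed to 7.72, 8.06 and 7.54 CPM in radial glia, neurons and intermediate progenitors labelled E16 and to 2.93 CPM in erythroid cells, which should lack them. In the library labelled E14, without meningeal cells, they summed to 2.91 CPM in radial glia, 0.244 CPM in neurons and 0.113 CPM in intermediate progenitors. In the library labelled E18, with 20 meningeal cells, the sums were 4.66, 5.84 and 5.87 CPM in the same classes, and erythroid cells, 9 in number, had 0 UMIs. That allows up to 11.4 CPM, above these sums, and sets no background for them. Neurons and intermediate progenitors thus had more of these UMIs in both libraries with meningeal cells, while in radial glia the values labelled E14 and E18 rest on 18 and 124 UMIs. The part of free RNA in them was not tested.

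**Figure D3:**
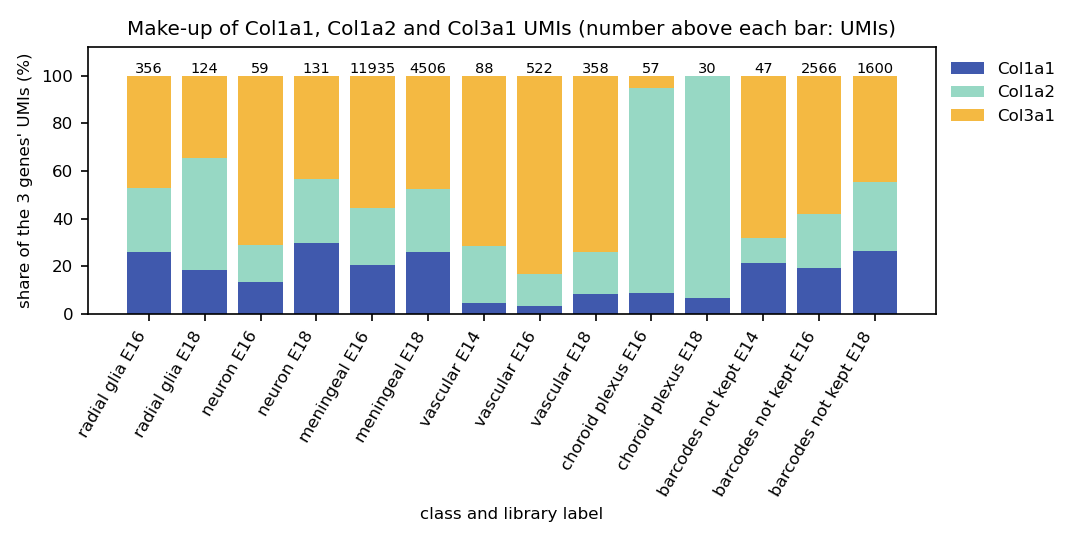
Share of Col1a1, Col1a2 and Col3a1 in the UMIs of the 3 genes (vertical axis, percent) in each class and library with at least 20 of these UMIs, with the number of UMIs above each bar. Vascular cells are mostly Col3a1 (71.6%, 83.1% and 74.0%), choroid plexus mostly Col1a2 (86.0% and 93.3%), and in the libraries labelled E16 and E18 the barcodes left out by the filters lie near the meningeal cells.

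Vascular-like cells were led by Col4a1 of the ubiquitous collagen IV pair, followed on average by Col4a2 and Col3a1. Col4a1 was at 1819 (1711–1932), 1728 (1615–1846) and 2472 (2308–2644) CPM in label order. Col4a2 was at 598, 414 and 913 CPM. Col3a1 was at 109 CPM (83.4–139) labelled E14, 856 CPM (777–941) labelled E16 and 771 CPM (681–869) labelled E18, so in the library labelled E16 it was above Col4a2. Col4a1 and Col4a2 were highest labelled E18, and for Col4a1 the intervals of the others overlapped. Endothelial cells held 467074 of 580530, 316666 of 506932 and 107000 of 343906 vascular UMIs in label order. Between the libraries, cell kind and library therefore cannot be told apart. Of 26, 25 and 26 genes tested, 16, 18 and 20 were at least 4-fold above radial glia (background 11.6%, 10.7% and 12.3%). For 6, 7 and 8 of these, at or under 1.4 CPM in radial glia, the minimum level fixed the call, and of the other 20, 18 and 18 genes 10, 11 and 12 were higher. Col2a1 was at least 4-fold lower in every library, as the only gene labelled E16, with Col4a6 labelled E18, and with Col4a6, Col11a1, Col12a1 and Col22a1 labelled E14 (background 11%, 7.02% and 6.57% in label order). For 3, 1 and 1 of these 5, 1 and 2 lower genes, at or under 1.4 CPM in vascular cells, the minimum level fixed the call.

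The vascular laminin chains were Lama4, the endothelial alpha chain, at 338, 260.4 and 305 CPM, Lamb1 at 193, 156 and 262 CPM and Lamc1 at 188, 201 and 314 CPM. Lama4 had overlapping intervals in all 3 libraries (292–388, 218–309 and 249.7–369.6). Lamb1 made up 50.7%, 43.6% and 45.5% of the Lamb1 and Lamc1 UMIs, close to equal as in meningeal cells (54.8% and 54.5%). Lama5 had 1, 0 and 1 UMIs.

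Endothelial and mural cells differed in the collagens around this shared core. In mural cells, the contractile cells that wrap vessels, Col3a1 was at 256, 2276 and 1119 CPM, Col6a1 at 256, 158 and 253 CPM and Col6a2 at 317, 221 and 186 CPM. In the endothelial cluster Col6a1 and Col6a2 had 0 UMIs labelled E16 and E18, among 316666 and 107000 UMIs in all. Col18a1 was instead at 404 and 850.5 CPM there, against 57.8 and 63.3 CPM in mural cells. Col15a1, a basement membrane collagen related to Col18a1, had 0, 89 and 5 UMIs in endothelial cells. The endothelial cluster held 7, 16 and 3 cells and the mural cluster 7, 14 and 15, so these values describe few cells.

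The endothelial cluster labelled E14 did not share this split. Its 7 cells had a median of 58889 UMIs, against 12433 labelled E16 and 12993 labelled E18, and held 41 Col6a1, 21 Col6a2 and 34 Col3a1 UMIs. Col9a3 was at 143, 31.6 and 46.7 CPM in label order. In all vascular cells, the mural cluster included, the erythroid marker list summed to 710, 203 and 2.91 CPM in label order, with 0, 3 and 9 of 10 genes at 0. The mural list summed to 1793, 1136 and 2774 CPM, with none at 0 in any library. The part of cells captured together was not tested.

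**Figure D4:**
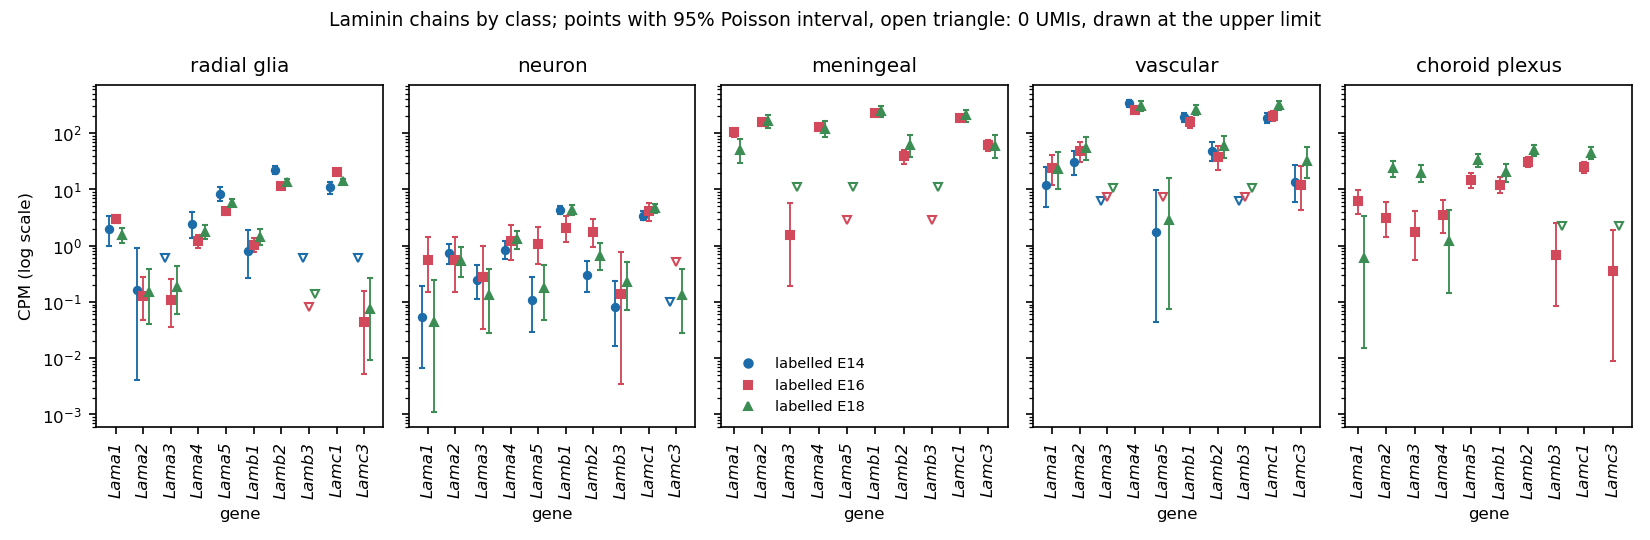
Levels of the 10 laminin chains with at least 10 UMIs over all kept cells in each class, in CPM on a log axis, with 1 point per library label, bars for the 95% Poisson interval and open triangles at its upper limit where there were 0 UMIs. Lamb1 and Lamc1 lie at like levels in meningeal and vascular cells, while in radial glia Lamb1 (0.8095, 1.04 and 1.43 CPM) lies below Lamc1 (10.8, 20.1 and 13.9 CPM).

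In choroid plexus-like cells Col2a1, the leading collagen of radial glia, was also the highest labelled E16, while labelled E18 Col8a2 stood beside it. Their collagens summed to 443 and 544 CPM in the libraries labelled E16 and E18 and their laminins to 98.6 and 194 CPM. The laminin sum was 2.38 (2.09–2.69) and 5.03 (4.42–5.71) times radial glia. Col2a1 was at 79.4 (69.4–90.4) and 68.1 (56.1–81.9) CPM, and Col4a5 at 55.03 and 66.3 CPM with Col4a6 at 42.5 and 26.8 CPM. Col4a1, in contrast, was at 14.98 (10.8–20.2) and 7.296 (3.77–12.7) CPM, below radial glia in both libraries. The leading genes of the choroid plexus cluster included Rspo2, a listed cortical hem marker. At a Leiden resolution of 2 the class held 83 and 38 cells in place of 154 and 55. Cortical hem-like cells labelled E16 had Col2a1 at 128 CPM. The part of such cells was not tested, and between the libraries cell kind and library cannot be told apart.

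Of 18 and 24 genes tested, 5 and 10 were at least 4-fold above radial glia (background 6.97% and 11%) and 0 were 4-fold lower in either (background 1.11% and 4.42%). With 5 CPM added in place of 1 the higher genes numbered 0 and 4, and at a minimum of 20 CPM 1 and 1, so at these low levels the count rests on the setting. For 2 and 5 of the 5 and 10 genes, at or under 1.4 CPM in radial glia, the minimum level fixed the call. In both libraries they included Col8a1 at 12.2 and 27.97 CPM, Lamb1 at 12.2 and 20.1 CPM, Col9a2 at 19.5 and 20.1 CPM and Col1a2 at 17.1 and 17.03 CPM. Col8a2, which with Col8a1 forms the hexagonal network under the corneal endothelium, was at 5.92 (3.45–9.48) and 70.5 (58.3–84.6) CPM. Other genes were also higher labelled E18 by more than counting error. Lama3, an epithelial alpha chain, was at 1.74 and 19.5 CPM, Lama2 at 3.13 and 23.7 CPM and Lama5 at 14.6 and 33.4 CPM. Col14a1 had 2 and 34 UMIs. The summed choroid plexus markers were higher too, 31557 and 113760 CPM, and their part was not tested.

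Col1a2 outnumbered its partner chain Col1a1 in choroid plexus cells, as it did in vascular cells. It had 49 and 28 UMIs, against 5 and 2 of Col1a1 and 3 and 0 of Col3a1. Col1a1 therefore made up 9.26% (3.08–20.3) and 6.67% (0.818–22.1) of the Col1a1 and Col1a2 UMIs, against 46.7% (45.4–48.1) and 49.8% (47.8–51.9) in meningeal cells. In vascular cells the share was 16% (4.54–36.1), 19.3% (11.7–29.1) and 33.3% (23.9–43.9) in label order, and in radial glia 16.7% (3.58–41.4), 49.5% (42.1–56.8) and 28.4% (18.9–39.5). The intervals of choroid plexus and vascular cells overlapped labelled E16 but not labelled E18, so the lean to Col1a2 was not particular to choroid plexus. The meningeal marker list, which holds no collagen, summed to 10.8 and 40.1 CPM in choroid plexus cells, with 8 and 7 of its 15 genes at 0.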

How the data were processed

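The deposited files hold raw UMI counts, with genes in rows and barcodes in columns; per the file headers Cell Ranger 6.0.1 wrote them, with gene symbols and barcodes as separate deposited lists. The build is mRatBN7.2 per the submitters' processing notes, and the annotation is not given in the sources used here. Barcodes held 62740631, 80974234 and 73727823 UMIs in the libraries labelled E14, E16 and E18. Of 7100, 6707 and 6937 barcodes, 4444, 5193 and 5690 had at least 1000 genes and at most 10% mitochondrial UMIs. The highest Scrublet doublet scores, 158, 216 and 259 cells, were removed at 0.8% per 1000 cells. Cells were clustered in Scanpy 1.11.5 (2000 variable genes without the collagen, laminin and partner genes, 30 components, 15 neighbours, Leiden resolution 1 in leidenalg 0.10.2), with unnamed clusters split again at 0.5. Names came from 152 marker symbols of 13 classes. The scoring rule was settled after the clusters were seen, and differences from other work may come from these rebuilt names. Of 37 clusters, 7 stayed unnamed. Excitatory, Cajal-Retzius and GABAergic clusters were joined as neurons, in place of excitatory neurons alone, because the largest neuron cluster labelled E16 carried both excitatory and Cajal-Retzius markers.

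Levels are CPM of the summed UMIs of a class in a library, not divided by gene length, with exact Poisson intervals. Shares have exact Clopper-Pearson intervals, and ratios use binomial intervals. UMI collapsing removes PCR copies, and intervals leave out variation between embryos. Counts past 2-fold (libraries) or 4-fold (classes) used genes of at least 5 CPM with 1 CPM added, in classes of at least 10 cells. For libraries as for classes, a gene low enough on 1 side could pass that minimum only with a call. A level of 0 is bounded at 3 counts. No test was run, as there was 1 library per label. The ratio code was tested on simulated data. Named genes were the 6 highest of each class, the 5 highest and 5 lowest ratios to E14 in radial glia, trimer partners, and up to 3 partner genes per list. Members and lists were chosen with earlier results of these data known. Alternatives were a stricter filter, doublets kept, resolution 2, size factors, other minimum levels, added CPM and thinning depth. Of 72 partner genes listed, 71 were found. 1 gene is not reported here by name or value; the sums hold its UMIs.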

Additional observations from a re-analysis of the deposited data

Results flagged for a closer look

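In the barcodes left out by the cell filters and as doublets, Col1a1, Col1a2 and Col3a1 together had 47, 2566 and 1600 UMIs in the libraries labelled E14, E16 and E18. They are listed because these barcodes enter no comparison and still carried the signal. They were 4.75, 265 and 182 CPM there, and Col3a1 took 68.1%, 58.0% and 44.7% of them, against 55.7% and 47.5% in meningeal cells labelled E16 and E18.

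The Col9a3 differences between libraries had opposite signs in radial glia and neurons. The difference between both log2 ratios, radial glia minus neurons, was 1.38 for E18 over E14 and 0.81 for E18 over E16. In radial glia Col9a3 was at 7.61, 10.6 and 12.4 CPM in label order and in neurons at 11.7, 10.5 and 6.55 CPM. With 1 library per label the difference was not tested. The neurons lay mostly in different clusters in each library, with 1165, 818 and 722 cells labelled E14 in 3 clusters, 607 labelled E16 in another and 917, 662 and 476 labelled E18 in 3 more, so cell kind and library cannot be told apart.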

How the results depend on the processing

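No paired analysis was possible because each label has 1 library and no replicate numbers. Of 249 alternative values, 192 stayed within counting error (counts of genes within 1.5 times), 56 moved and 1 turned its sign. The use of 1 radial glia cluster alone, of excitatory clusters alone and of mural cells alone was chosen after seeing the data. The log2 ratio of the collagen sum in radial glia, -0.30 between E16 and E14, was -0.40 with the stricter cell filter, -0.14 with doublets kept, -0.38 at Leiden resolution 2 and -0.15 with size factors. For E18 over E14, -0.12 became -0.0089 with doublets kept and -0.0095 with size factors. For E18 over E16, 0.19 became 0.23 with the stricter filter, 0.14 with doublets kept, 0.24 at resolution 2 and 0.12 in 1 cluster alone. Size factors shifted all log2 ratios in radial glia by 0.15, 0.11 and -0.04 for these comparisons. The laminin sum in 1 cluster alone, with 39 cells labelled E16, was -0.72 (E16 over E14) and 0.62 (E18 over E16), against -0.17 and -0.11. There Col18a1 turned from -0.31 to 0.28 for E18 over E16 (-1.10 to 2.18). The 3, 3 and 0 genes past 2-fold in radial glia became 0 (E16 over E14) and 0 (E18 over E14) at a minimum of 20 CPM. With no minimum they were 7 and, for E18 over E16, 2, and in 1 cluster alone 5 and 3. The 5 and 10 genes higher in choroid plexus became 1 and 1 at 20 CPM, and 0 and 4 with 5 CPM added. The 7, 8 and 8 genes lower in neurons became 1, 1 and 1 at 20 CPM, 12 labelled E14 with no minimum, and 3 and 3 labelled E16 and E18 with 5 CPM added. Partner genes past 2-fold, 10, 9 and 1, became 5, 3 and 0 at 20 CPM, and 2 for E18 over E16 at resolution 2. At 4000 UMIs per cell, 29.6%, 20.0% and 31.4% of radial glia held a Col2a1 UMI, and 9.55% and 1.62% a Col12a1 UMI labelled E14 and E18, against 4.47% and 0.944% at 2000. The cause of these shifts was not tested. Meningeal cells labelled E18 and vascular cells gave no value under the stricter filter, nor vascular cells labelled E14 with doublets kept, since fewer than 10 were named. Excitatory clusters alone gave no value labelled E16. Depth limits the small classes. There 1 UMI is worth 2.14 to 9.35 CPM in the endothelial and mural clusters taken apart and 1.72 to 2.95 CPM in vascular cells and the meningeal cells labelled E18, and 3 UMIs are worth 11.4 CPM in erythroid cells labelled E18.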
